A study of Caenorhabditis elegans with 2 samples.

Results

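Short gaps between neighbouring genes transcribed in the same direction, spaced as genes of an operon are, were examined for summits of REPO-1 chromatin immunoprecipitation followed by sequencing (ChIP-seq) in whole Caenorhabditis elegans. Protein-coding genes on the autosomes were sorted by start, and a gap of 1 to 500 bp between adjacent, non-overlapping genes on the same strand counted as short. There were 3262 such gaps among 14697 autosomal gaps between neighbouring protein-coding genes, and 90 of the 1489 autosomal summits of the replicated list lay in 88 of them. The spacing alone defined the gaps, and no annotation of operons was used.

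The study had 1 group of 2 biological replicates, with no untagged strain or other genotype among the samples analysed here. The worms were of strain OP688, with the unc-119(tm4063) III allele and the integrated transgene wgIs688, which encodes REPO-1 fused at its C-terminus to GFP-FLAG. They were mixed-sex young adults taken 53 hours after synchronisation as starved L1 larvae, and their sonicated chromatin was immunoprecipitated with anti-GFP. The strain is a single transgenic line, and the promoter of the transgene is not given in the labels. Whole animals pool all tissues, so a weak association in many cells and a strong one in few cannot be told apart. Reads are not counted in the deposited lists, so depth is unknown. Intervals are 95% intervals (Wilson for shares, exact Poisson for densities) and cover counting error over gaps or genes only.

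In C. elegans, many neighbouring genes are transcribed from 1 promoter as an operon. The long precursor is cut into separate messenger RNAs by 3′ end formation of the upstream gene and by trans-splicing of a spliced leader, typically SL2, onto the downstream gene. REPO-1 corresponds to human SF3A2, part of the U2 snRNP, the particle that recognises the branch point before a splice acceptor. A C. elegans acceptor typically reads TTTCAG, in cis- and trans-splicing alike, and AATAAA is the usual polyadenylation signal.

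Gaps that held a summit are shown first, in the direction of transcription on ce11 (RefSeq sequence of the same assembly, WBcel235), with the 21 bases centred on the summit in capitals, fewer where the gap ends. They are 3 of the 12 gaps with the strongest summits and 1 gap behind a ribosomal protein gene, rps-30. Each runs from the base after the upstream gene to the base before the downstream gene.
C34C12.2/C34C12.8 chrIII:3460112-3460405 (+): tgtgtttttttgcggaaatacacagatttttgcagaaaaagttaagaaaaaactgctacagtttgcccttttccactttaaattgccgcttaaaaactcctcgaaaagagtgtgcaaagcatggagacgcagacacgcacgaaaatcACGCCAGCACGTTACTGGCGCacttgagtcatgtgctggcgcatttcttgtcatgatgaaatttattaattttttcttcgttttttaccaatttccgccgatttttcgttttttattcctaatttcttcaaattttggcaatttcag
C50F4.6/his-37 chrV:9546842-9547104 (+): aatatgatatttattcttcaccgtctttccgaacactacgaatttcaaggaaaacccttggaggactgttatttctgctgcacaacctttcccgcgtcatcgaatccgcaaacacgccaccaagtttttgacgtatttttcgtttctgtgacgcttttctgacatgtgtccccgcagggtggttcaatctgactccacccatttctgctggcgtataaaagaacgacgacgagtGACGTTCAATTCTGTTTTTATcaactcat
Y39B6A.42/Y39B6A.43 chrV:18967830-18967904 (-): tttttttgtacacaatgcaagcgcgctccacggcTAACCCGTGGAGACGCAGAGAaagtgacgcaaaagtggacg
rps-30/C26F1.3 chrV:7777226-7777299 (+): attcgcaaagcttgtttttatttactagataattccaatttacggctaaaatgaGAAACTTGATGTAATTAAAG
In C34C12.2/C34C12.8 the summit lay 158 bp beyond the upstream gene, and the gap ends in an acceptor sequence, tttcag. In C50F4.6/his-37 it lay 245 bp beyond the upstream gene and 19 bp before the histone gene his-37. The gap of Y39B6A.42/Y39B6A.43 is 75 bp long, so its peak, from 18967752 to 18967924, spilled into both genes.

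Gaps without a summit of their own follow, with any TTTCAG or AATAAA in capitals. After atp-2 (ATP synthase beta subunit) and mdh-1 (malate dehydrogenase) the summit lay beyond the gap, inside the next gene. The last one lies before repo-1 itself.
atp-2/prmt-5 chrIII:5230537-5230554 (+): aaaactgcgagtttgttg
mdh-1/dpy-11 chrV:6515241-6515282 (-): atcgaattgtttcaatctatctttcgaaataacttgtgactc
lex-1/repo-1 chrIV:12084363-12084477 (+): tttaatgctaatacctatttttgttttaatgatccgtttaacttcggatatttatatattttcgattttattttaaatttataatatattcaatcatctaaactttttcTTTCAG
The atp-2/prmt-5 gap is 18 bp long and its summit lay 94 bp past the 5′ end of prmt-5, an arginine methyltransferase gene. The repo-1 gene, on the plus strand of chromosome IV, is the middle gene of a run with lex-1 and rbm-34, and the gap before it ends in TTTCAG. Neither of its gaps, of 115 and 99 bp, held a summit in the replicated list or in the full list called on both replicates together. The nearest replicated summit was 47276 bp away.

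Short same-strand gaps held a summit less often than divergent and long same-strand gaps did, but held more summits per length. A summit of the replicated list lay in 88 of 3262 short same-strand gaps (2.70%, Wilson interval 2.19 to 3.31), against 217 of 3641 divergent gaps (5.96%, 5.24 to 6.78), 82 of 2341 convergent gaps (3.5%, 2.83 to 4.33) and 248 of 5453 same-strand gaps longer than 500 bp (4.55%, 4.03 to 5.13). Over all 14697 autosomal gaps the share was 4.32%, and the interval of convergent gaps overlapped that of short same-strand gaps. Short same-strand gaps together span 711 kb and held 0.127 summits per kb (exact Poisson interval 0.102 to 0.156). Divergent gaps held 0.0232 per kb, convergent gaps 0.0263 and long same-strand gaps 0.0184. Among gaps of 1 to 500 bp, divergent ones held 0.241 summits per kb (0.183 to 0.310) and convergent ones 0.169 (0.119 to 0.231), so the higher density went with short gaps of every orientation.

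Within short same-strand gaps the share with a summit went up with length. In steps of 100 bp, it was 3 of 770 gaps of up to 100 bp (0.390%), 9 of 967 of up to 200 bp (0.931%), 19 of 545 of up to 300 bp (3.49%), 28 of 522 of up to 400 bp (5.36%) and 29 of 458 of up to 500 bp (6.33%). Of the gaps up to 50 bp inside the limit of 500 bp 7.05% held a summit, and of same-strand gaps up to 50 bp beyond it 6.19%. The median length was 341.5 bp for gaps with a summit and 177 bp for gaps without. At 1 to 200 bp, same-strand gaps held a summit in 12 of 1737 cases (0.691%, 0.396 to 1.20), divergent gaps in 10 of 240 (4.17%, 2.28 to 7.50) and convergent gaps in 8 of 570 (1.40%, 0.713 to 2.74). Above 200 bp the shares were closer, with 4.98% of same-strand gaps (4.0 to 6.19), 7.80% of divergent gaps (5.95 to 10.2) and 5.08% of convergent gaps (3.51 to 7.28). The intervals of same-strand and convergent gaps overlapped at both ranges.

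The rarity of summits in the shortest gaps did not mean that those gene pairs lacked a summit. Where the gap was 1 to 200 bp long, 100 summits lay in the first 300 bp of the downstream gene, 12 in the gap and 13 in the last 300 bp of the upstream gene. Per length this was 0.192 summits per kb in the start of the downstream gene (exact Poisson interval 0.156 to 0.234), 0.0650 in the gap (0.0336 to 0.114) and 0.0250 in the end of the upstream gene (0.0133 to 0.0428). For short gaps over 200 bp the order was different, with 0.0285 per kb in the start of the downstream gene (0.0152 to 0.0488), 0.148 in the gap (0.117 to 0.185) and 0.0154 in the end of the upstream gene (0.00618 to 0.0317).

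Counted from the 3′ end of the upstream gene, the median summit lay beyond that end in all 5 length ranges, at 160.5 to 264.5 bp. Over all summits from 500 bp before to 500 bp after a short gap (246 distinct summits, 254 pairings with a gap), the median lay 191 bp beyond the 3′ end in the shortest range, and 264.5, 160.5, 165 and 211 bp in the longer ones, in order of length. Counted from the 5′ end of the downstream gene, the same medians were 133 and 143.5 bp inside the gene for the 2 shorter ranges. For the 3 longer ranges they were -90.5, -161 and -246 bp, where a negative value lies before the gene. Over all short gaps the middle 50% of summits spanned 202 bp when counted from the upstream 3′ end and 344 bp when counted from the downstream 5′ end. Within the 5 ranges, in order of length, the span was 199, 184, 152, 200 and 140 bp from the 3′ end. From the 5′ end it was 166, 210, 191, 222 and 130 bp, so narrower in the shortest and the longest range. Of the 254 pairings, 30 lay in the upstream gene, 90 in the gap and 134 at or past the downstream 5′ end. These positions depend on where the annotation ends each gene.

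**Figure D1:**
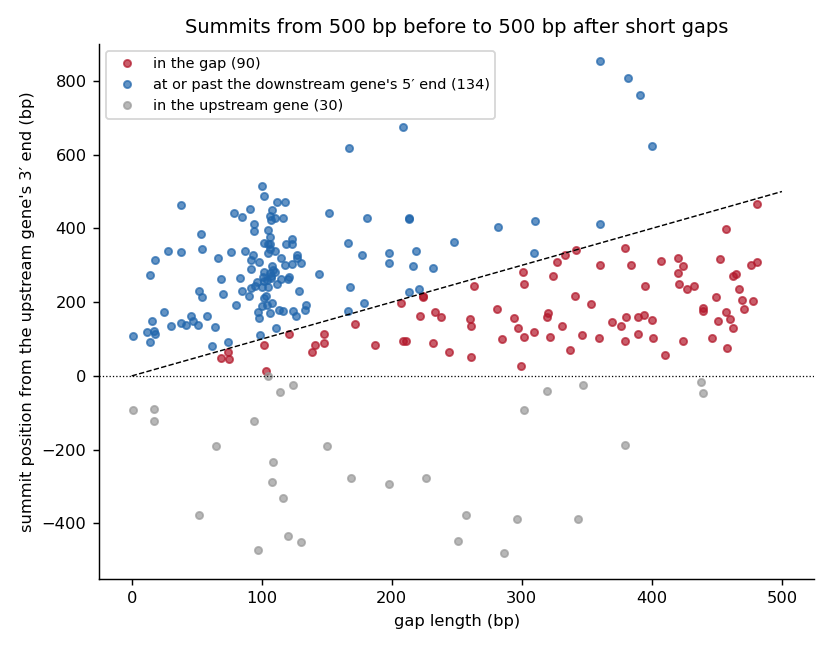
Each point is a summit from 500 bp before to 500 bp after a short same-strand gap, with the gap's length in bp on the x axis and its position in bp from the upstream gene's 3′ end on the y axis. The dotted line is that 3′ end and the dashed line the downstream gene's 5′ end. Most points form a band above the dotted line, 90 of them in the gap and 134 at or past the dashed line.

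**Figure D2:**
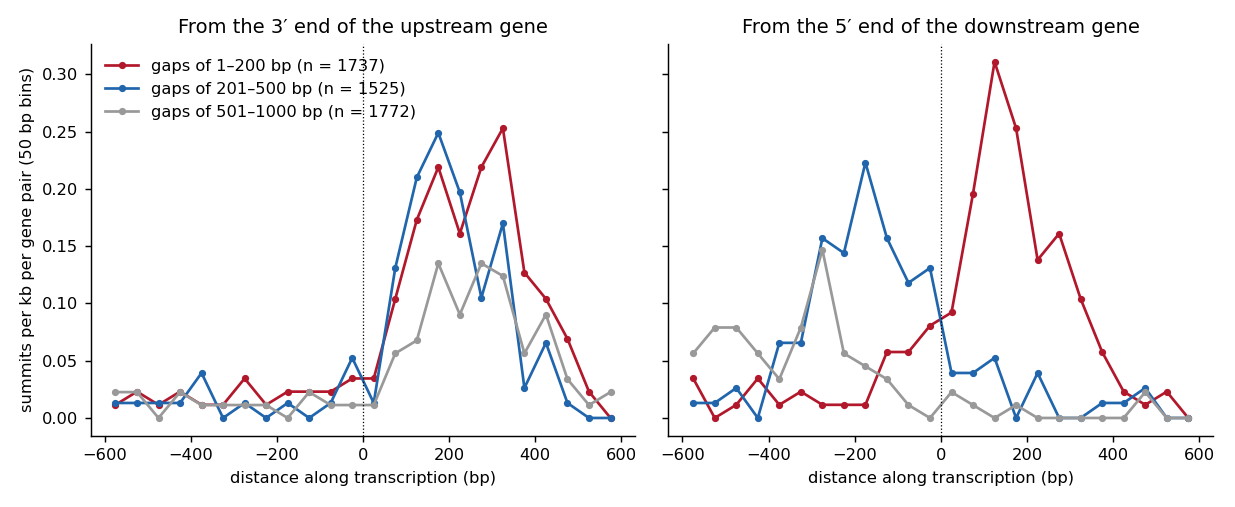
Summits per kb per gene pair in 50 bp bins, by distance in bp along transcription from the upstream gene's 3′ end (left) and from the downstream gene's 5′ end (right), for same-strand gaps of at most 200 bp, of over 200 to 500 bp and of over 500 to 1000 bp. From the 3′ end the curves of the 2 shorter ranges run close to each other up to 225 bp and then part. At 275 bp they are at 0.219 (1 to 200 bp) and 0.105 (over 200 to 500 bp), and at 375 bp at 0.127 and 0.0262. Their maxima are at 325 and 175 bp. From the 5′ end, gaps of 1 to 200 bp have their maximum inside the gene and those of over 200 to 500 bp before it.

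A window of 300 bp beyond the 3′ end, chosen after these positions were seen, was therefore scored for every upstream gene, without regard to where the gap ends. Of the 3262 pairs, 146 had a summit there (4.48%, 3.82 to 5.24), against 2.83% of all autosomal protein-coding genes. The share was 4.81, 4.14, 4.04, 4.79 and 4.80% from the shortest to the longest of the 5 length ranges. It was 77 of 1737 pairs at 1 to 200 bp (4.43%, 3.56 to 5.51) and 69 of 1525 above 200 bp (4.52%, 3.59 to 5.69). Among the pairs with shorter gaps, 65 of the 77 had the summit past the gap only, 9 in the gap only and 3 in both places. Among those with longer gaps, 65 of the 69 had it in the gap only. Same-strand pairs over 500 and up to 1000 bp apart had a summit there in 2.43% of cases (1.81 to 3.25) and pairs farther apart in 1.52% (1.17 to 1.97). Genes at convergent gaps of any length had one in 2.80% (2.36 to 3.31). The share at convergent gaps of 1 to 500 bp was not computed, so this value is not matched for gap length. No test across samples is possible with 1 group.

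Each replicate alone gave shares that also varied little with gap length. Among the 1789 strongest peaks of replicate 1, 147 pairs had a summit within 300 bp beyond the upstream gene (4.51%), with 5.06% in the shortest range, 3.67% in the middle one and 5.02% in the longest, against 2.77% of all autosomal genes. In replicate 2 it was 156 pairs (4.78%), with 4.68, 4.77 and 4.80% in those ranges, against 2.91% of all genes. The full list called on both replicates, which has no significance threshold, placed a summit there in 34.7, 24.4 and 19.4% of pairs in the same ranges, against 17.4% of all autosomal genes, so in that list the share was lower for longer gaps. In the replicated list the pairs had 151 distinct summits there, 10.1% of all autosomal summits, and 105 of them were inside 1 of the strongest regions of both replicates. By chromosome the share ran from 2.64% of pairs on V to 6.65% on IV, above the share of all genes on that chromosome (1.72% and 3.35%), and it was 4.65% on the plus strand and 4.30% on the minus strand.

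**Figure D3:**
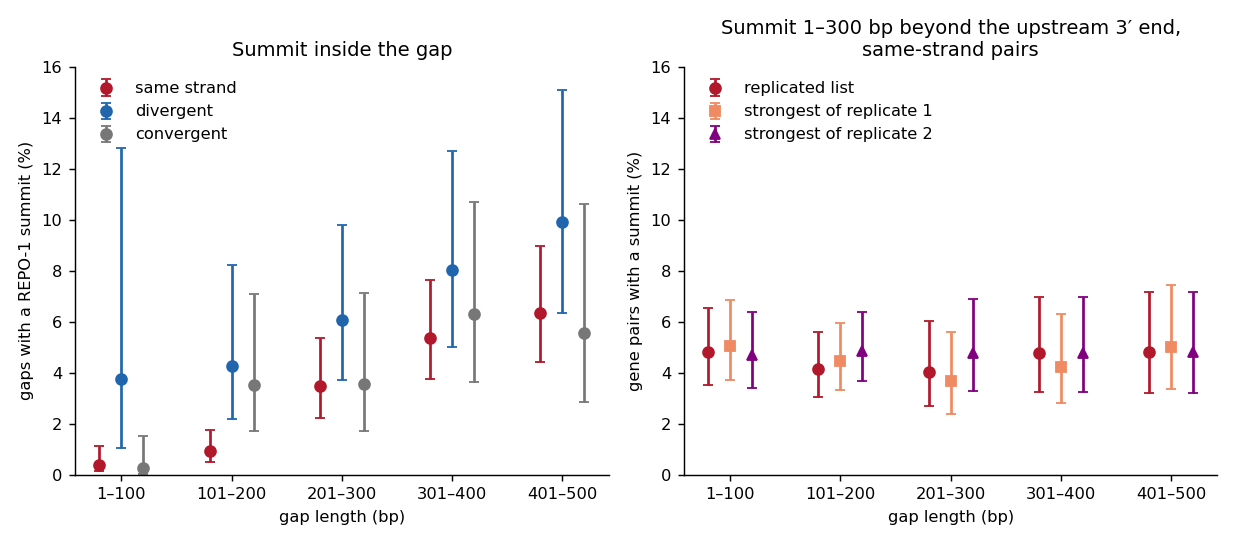
Left, percent of gaps of 1 to 500 bp that hold a summit of the replicated list, by gap length in bp, for same-strand, divergent and convergent gaps. Right, percent of same-strand pairs with a summit 1 to 300 bp beyond the upstream 3′ end, in the replicated list and among the 1789 strongest peaks of each replicate. Bars are 95% Wilson intervals. The same-strand share goes up with length on the left, 0.390% to 6.33%, and stays between 4.04% and 4.81% in the replicated list on the right.

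Genes behind a short gap of 1 to 200 bp carried a summit in their first 300 bp in 99 of 1737 cases (5.70%, 4.70 to 6.89). The share was 0.787% of genes behind a short gap over 200 bp (0.451 to 1.37), 0.128% behind a longer same-strand gap (0.0622 to 0.265), 0.330% at a divergent gap (0.222 to 0.490) and 0.922% of all autosomal protein-coding genes. Of the 100 summits, 8 had a non-coding gene within 200 bp and 2 a tRNA, snoRNA or snRNA gene. Inside 1 of the strongest regions of both replicates were 58 of the 100, against 61.5% of all autosomal summits. The median signal of the 100 was 168.6, against 203.3 for the 90 summits in gaps and 173.0 for all autosomal summits (a value the authors deposited, with no stated scale).

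The 8 strongest of these summits were named after their values were seen. Behind atp-2 the peak ranked 82 of 1789, with a signal of 288.1 in replicate 1 (rank 62) and 156.7 in replicate 2 (rank 142), 113 bp beyond the 3′ end of atp-2. Behind trap-4, a subunit of the translocon-associated complex, it ranked 129 (signal 219.8 in replicate 1 and 169.1 in replicate 2), at 397 bp. Behind mdh-1, whose neighbour dpy-11 encodes a thioredoxin-like protein, it ranked 137 (192.6 and 172.8 in replicates 1 and 2), at 137 bp. All 3 therefore ranked within the top 179 of both replicates, and the mdh-1 summit has a non-coding RNA gene within 200 bp. The next were behind ztf-7 (rank 142, 177 bp, with 219.4 in replicate 1 and 152.9 in replicate 2) and Y71F9AL.9 (rank 163, 215 bp, with 171.4 and 163.6 in replicates 1 and 2). Weaker ones followed pges-2 before the sirtuin gene sir-2.1 (rank 221, 217 bp), the histone chaperone gene nap-1 (rank 223, 91 bp) and hrpa-1, which encodes an hnRNP A protein (rank 236, 163 bp).

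The 12 gaps with the strongest summits were mostly longer than the median gap: 11 exceeded 200 bp and their median was 316.5 bp. All 12 summits lay within 300 bp of the upstream gene, at a median of 155 bp (range 45 to 280). They also lay within 300 bp of the downstream gene (range 19 to 249), and in gaps shorter than 300 bp neither could be otherwise. The 12 summits ranked 59 to 117 in the replicated list, 63 to 169 in replicate 1 and 51 to 143 in replicate 2, so each was among the strongest peaks of both. The first was in the gap before cmtr-1, a cap methyltransferase gene, behind Y53F4B.12 (331 bp gap, chrII:15025783-15026113), with a signal of 280.9 in replicate 1 and 227.7 in replicate 2. That gap contains the snoRNA gene Y53F4B.47 on the other strand, 24 bp from the summit, and whether the peak belongs to it was not tested. The second was behind rpl-27 (ribosomal protein L27) and before egl-30 (a Gq alpha subunit), with 287.2 in replicate 1 and 196.3 in replicate 2, at 162 bp into a 222 bp gap. The fourth, between hlh-33 (a bHLH factor) and ddp-1 (a small chaperone of mitochondrial import), had 283.6 in replicate 1 and 186.9 in replicate 2. The fifth, behind the cyclophilin gene cyn-3, had 275.3 in replicate 1 and 179.9 in replicate 2, and its summit lay on the snoRNA gene Y75B12B.12.

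The rest of the 12 lay between genes with varied roles. They were ZK550.2/eelo-2 (rank 67), hsp-110/ufbp-1 (an Hsp110 chaperone and a UFMylation factor, rank 78), sys-1/eif-3.C (a beta-catenin and an initiation factor subunit, rank 88), T23B7.3/dnj-9 (a DnaJ co-chaperone downstream, rank 105), pbs-2/tba-2 (a proteasome beta subunit and an alpha-tubulin, rank 108), C34C12.2/C34C12.8 (rank 109), Y39B6A.42/Y39B6A.43 (rank 111) and C50F4.6/his-37 (rank 117). Only icl-1/fbxb-72 and mnk-1/pro-1 held 2 summits, 348 and 95 bp beyond icl-1, which encodes a glyoxylate cycle enzyme, and 297 and 96 bp beyond mnk-1, a kinase gene. Both pairs of summits fell in 1 region of each replicate. Of the 90 summits, 79 were inside a strongest region of replicate 1, 74 of replicate 2 and 66 of both (73.3%, 63.4 to 81.4), against 61.5% of all autosomal summits (59.0 to 63.9).

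**Figure D4:**
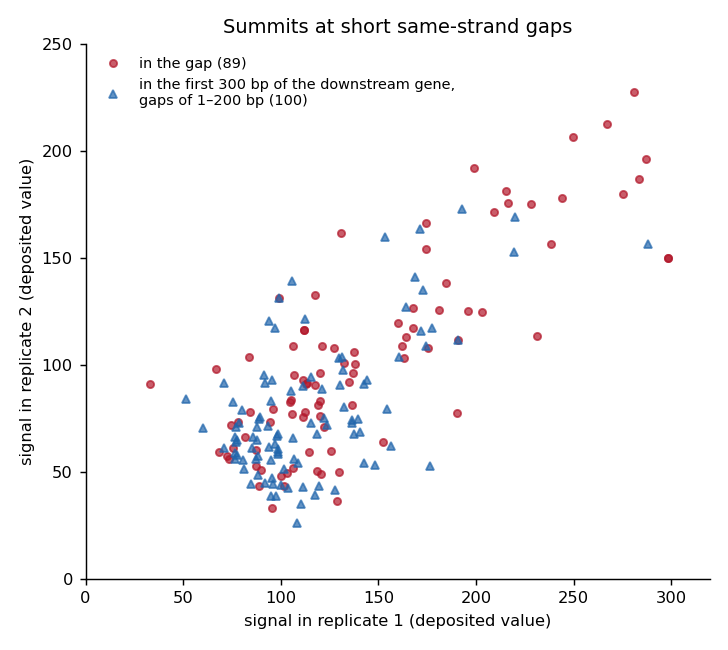
Signal of the covering region in replicate 2 (y axis) against replicate 1 (x axis), in the authors' deposited units, for 89 summits in short gaps (circles; the other had no region in replicate 2) and 100 summits in the first 300 bp of genes behind gaps of 1 to 200 bp (triangles). The strongest gap summits, such as the one at Y53F4B.12/cmtr-1 with 280.9 and 227.7, are high in both replicates.

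The replicates' own summits placed in gaps gave similar totals. Among the strongest peaks, 79 gaps held a summit in replicate 1 (2.42%, against 3.86% of all autosomal gaps), 89 in replicate 2 (2.73%, against 4.31%) and 57 in both. The full list without a threshold placed one in 436 short gaps (13.4%), against 25.2% of all autosomal gaps. A gap outside the replicated list may therefore hold a weaker region.

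Within the gap the summits lay about equally near to both genes. Of the 90, 42 were nearer to the upstream gene (46.7%, 36.7 to 56.9), and the median distance was 159 bp from the upstream gene and 156 bp from the downstream gene. Peak regions were 436 bp wide at the median, wider than most gaps, and only 13 of the 90 lay wholly inside their gap. A region overlapped 177 gaps (5.43%), more than the 88 that held a summit.

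Longer gaps that end in the acceptor sequence held summits more often than other gaps of that length. Of the 191 short gaps over 200 bp whose last 6 letters are TTTCAG, 28 held a summit (14.7%, 10.3 to 20.4), against 11 of 229 that end in another AG (4.80%, 2.70 to 8.40) and 37 of 1105 that do not end in AG (3.35%, 2.44 to 4.58). Median lengths of the 3 kinds were 349, 333 and 348 bp. The strongest peaks of replicate 1 gave 14.1, 3.93 and 2.90%, and those of replicate 2 gave 16.8, 4.37 and 3.08%, in the same order. In the window of 300 bp beyond the upstream gene the shares were 13.6, 3.93 and 3.08%. The summits themselves lay 11 to 355 bp before the downstream gene, at a median of 191 bp.

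Among gaps of 1 to 200 bp the intervals of the 3 kinds overlapped. Of those that end in TTTCAG, 0 of 276 held a summit (0 to 1.37). It was 6 of 516 with another AG (1.16%, 0.534 to 2.51) and 6 of 945 without AG (0.635%, 0.291 to 1.38). The strongest peaks of replicate 1 gave 0.725, 0.969 and 0.423%, and those of replicate 2 gave 0.725, 0.775 and 0.741%, in that order. Within 300 bp beyond the upstream gene, 12 of 276 pairs with TTTCAG had a summit (4.35%, 2.50 to 7.44), against 5.23% with another AG (3.62 to 7.51) and 4.02% without AG (2.94 to 5.47). Whether a gene model starts at an acceptor depends on the annotation as well as on the sequence. The 28 gaps include ubxn-3/F48A11.4 (rank 124), ubc-7/rpac-19 (a subunit of RNA polymerases I and III downstream, rank 196), rpn-3/mrpl-32 (a proteasome subunit and a mitochondrial ribosomal protein, rank 206), ubc-3/lsm-6 (a U6 snRNP protein downstream, rank 207) and psf-3/icd-2 (rank 555).

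**Figure D5:**
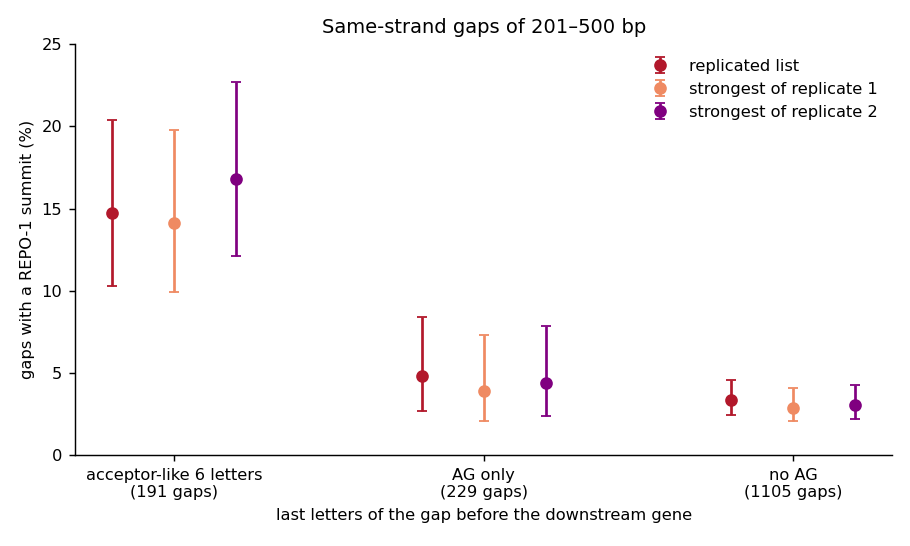
Percent of short same-strand gaps over 200 bp with a summit in the gap, by whether the gap ends in the 6-letter acceptor sequence, in AG only or in neither, for the replicated list and the strongest peaks of each replicate. Bars are 95% Wilson intervals. The first class is at 14.7, 14.1 and 16.8%, and the intervals of the other classes end at 8.40% or lower.

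Other letters were counted in the same gaps. Anywhere in the gap on the strand of the genes, TTTCAG occurred in 38 of 76 short gaps over 200 bp with a summit (50%, 39 to 61) and in 35.8% of those without (33.4 to 38.3). These counts include the gaps that end in TTTCAG, 28 of 76 with (36.8%) and 163 of 1449 without a summit (11.2%). They therefore repeat the result for gap ends in part, and show no excess of TTTCAG elsewhere in the gap. On the other strand TTTCAG occurred in 18.4% with and 27.1% without a summit. AATAAA, searched in the gap and the last 50 bp of the upstream gene, occurred on the strand of the genes in 72.4% of gaps with and 72.8% of gaps without a summit, and TTTTTT in 81.6% and 71.4%. The intervals for TTTTTT were 71.4 to 88.7 with and 69.0 to 73.7 without a summit. GC content was higher where there was a summit, with a median of 34.7% with and 32.5% without above 200 bp, and of 38.0% (12 gaps) and 29.5% at 1 to 200 bp. The same held in convergent gaps of over 200 to 500 bp (40.5% with and 32.5% without a summit) and in divergent ones (34.7% and 32.9%). The 9 letters GAGACGCAG, picked by eye from gap sequences and so no independent observation, occurred on either strand in 9 of 88 short same-strand gaps with a summit (0.310 such gaps per kb) and in 75 of 3174 without (0.110 per kb). In divergent gaps of 1 to 500 bp it occurred in 5 of 59 with a summit (0.259 per kb) and in 29 of 809 without (0.128 per kb). In convergent gaps of that length it occurred in 0 of 35 with a summit (3 counts would be 8.57%) and in 8 of 1067 without.

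By function, cytosolic ribosomal protein, chaperone and proteasome genes upstream of a short gap often had a summit just beyond them. The chemoreceptor genes listed had none, and that list left out the str- family of chemoreceptor genes. The lists were written with earlier results of these data known, and the count in the 300 bp window was added after seeing them. Of 31 short gaps behind a cytosolic ribosomal protein gene, 12 had a summit within 300 bp beyond it (38.7%, 23.7 to 56.2), against 4.48% of all short gaps. The gaps they flank had a median length of 112 bp, and those flanked by chemoreceptor genes 326.5 bp. Besides rpl-27, rpl-12 and rps-30, with the summit in the gap, these were rps-22, rpl-15, rpl-36, rla-2, rps-24, rpl-29, rps-3, rpl-17 and rpl-1, all 9 with the summit in the next gene, at ranks 665 to 1745. The signal at rps-22 was 140.8 in replicate 1 (rank 439) and 68.7 in replicate 2 (rank 1196), while at rpl-17 the ranks were 1192 and 5520, so the weakest of them were not among the strongest peaks of both replicates.

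Chaperone genes had 5 of 14 (35.7%, 16.3 to 61.2): hsp-110, hsp-90, the chaperonin subunit genes cct-6 and cct-2, and dnj-9. Proteasome genes had 3 of 10 (30%, 10.8 to 60.3), namely pbs-2, rpn-3 and rpt-4. The respiratory chain had 2 of 15 (13.3%), atp-2 and the cytochrome c gene cyc-2.1, and splicing genes 2 of 23 (8.70%), the SR protein gene rsp-6 and prp-19. Translation factors had 1 of 19 (eef-1B.2, rank 460), and mitochondrial ribosomal proteins 1 of 28 (mrpl-9, 3.57%, 0.633 to 17.7). The remaining lists had none, and the share that 3 counts would make is given beside each. It is not an upper limit, as the Wilson interval for chemoreceptors reaches 2.22%. Genes named rpb-, rpa-, rpc-, rpoa- or rpac-, listed as RNA polymerase subunits by name alone, had 0 of 18 (3 counts would be 16.7%). For tRNA synthetases it was 0 of 10 (3 would be 30%). The listed chemoreceptors had 0 of 169 (3 would be 1.78%), C-type lectins 0 of 27 (3 would be 11.1%) and collagens 0 of 13 (3 would be 23.1%).

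A summit in the gap itself, with a list member on either side, was counted next, against 2.70% of all short gaps. The counts were 4 of 18 gaps for the proteasome (22.2%, 9.0 to 45.2), 3 of 25 for chaperones, 3 of 29 for the respiratory chain, 3 of 38 for splicing genes and 3 of 39 for cytosolic ribosomal proteins (7.69%, 2.65 to 20.3). The splicing gaps were ubc-3/lsm-6, rsp-6/imp-3 (rank 781) and hst-1/snrp-3 (rank 1336), and the respiratory chain gaps were atp-5/mboa-2 (rank 404), C54G4.9/cyc-1 (rank 779) and isp-1/sph-1 (rank 873). The listed chemoreceptor genes flanked 246 short gaps, of which 0 held a summit (3 counts would be 1.22%, and the Wilson interval reaches 1.54%). Outside that list, the gap between rme-1 and the chemoreceptor gene str-206 held one (rank 1287). C-type lectins flanked 49 with 0 (3 would be 6.12%), collagens 30 with 0 (3 would be 10%) and tRNA synthetases 19 with 0 (3 would be 15.8%). Mitochondrial ribosomal proteins had 1 of 54 gaps (1.85%), translation factors 1 of 26 (3.85%) and genes of the RNA polymerase list 1 of 27 (3.70%), shares near that of all short gaps.

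At the outer ends of the pair, pairs with a gap summit were mostly unoccupied. The 5′ end of the upstream gene, from 500 bp upstream to 200 bp downstream, was occupied in 8 of 88 pairs with a gap summit (9.09%, 4.68 to 16.9) and in 194 of 3174 without (6.11%, 5.33 to 7.0), against 3.69% of all autosomal genes. The 3′ end of the downstream gene, from 200 bp upstream to 500 bp downstream, was occupied in 7 of 88 (7.95%, 3.91 to 15.5) and 120 of 3174 (3.78%, 3.17 to 4.50), against 4.51% of all autosomal genes. The value for pairs with a gap summit rests on few pairs: it was 12.4% (11 of 89) with replicate 2 alone, 5.06% (4 of 79) with replicate 1 alone and 1.64% (1 of 61) with peaks at or above the median signal. In 74 of the 88 neither outer end was occupied. Pairs with a long gap holding a summit had the downstream 3′ end occupied in 53 of 248 cases (21.4%, 16.7 to 26.9), above the interval of the short gaps, and the upstream 5′ end in 30 (12.1%, 8.61 to 16.7). Both outer ends together were occupied in 1 of the 88. Above 200 bp, each outer end of short pairs, counted apart, was occupied in 7 of 76 pairs with a gap summit (9.21%, 4.53 to 17.8). In pairs without, the 5′ end was occupied in 3.86% (2.99 to 4.99) and the 3′ end in 3.31% (2.51 to 4.36). The intervals at the 5′ end overlapped. At 1 to 200 bp the 5′ end was occupied in 1 of 12 pairs with a gap summit (8.33%, 1.49 to 35.4). Without one it was occupied in 138 of 1725 (8.0%, 6.81 to 9.38). The 3′ end was occupied in 0 of 12 and in 72 of 1725 (4.17%, 3.33 to 5.22). None of these shares by length was recomputed for each replicate.

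A few pairs show occupied outer ends. The divergent genes hsp-110 and rpn-3 shared a peak between their 5′ ends (rank 176), and each had its own peak in the gap behind it, hsp-110/ufbp-1 at rank 78 and rpn-3/mrpl-32 at rank 206. Behind mrpl-32 a further summit (rank 1096) lay 171 bp beyond its 3′ end. The downstream 3′ end of psf-3/icd-2 had the strongest of these peaks (rank 44), 329 bp beyond icd-2. The 5′ end of rpl-12 carried a peak of rank 74, stronger than the one in the gap behind it (rank 625). Beyond dnj-9, whose own upstream gap ranked 105, a summit of rank 1219 lay 258 bp past its 3′ end, inside F11G11.5.

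Genes joined by consecutive short gaps formed 2398 runs, of which 1800 had 2 genes and 176 had 4 or more. No run had a summit in more than 1 of its gaps, and 88 had it in 1. Runs of 2 genes could not have more, and the number expected among the longer runs was not computed. The share of runs with a gap summit was 9.66% for runs of 4 or more genes and 2.44% for runs of 2, with more gaps in the longer runs. By order, the first gap of a run held a summit in 71 of 2398 cases (2.96%, 2.35 to 3.72), the second in 11 of 598 (1.84%, 1.03 to 3.26) and the third in 5 of 176 (2.84%, 1.22 to 6.48). The median lengths of these gaps were 196, 147.5 and 119.5 bp, so order and length were not separated. Within 300 bp beyond the upstream gene the shares were 5.0% for the first gene (4.2 to 5.95), 2.68% for the second (1.65 to 4.30) and 3.98% for the third (1.94 to 7.98), and beyond the last gene of a run, with no short gap behind it, 2.13% (1.62 to 2.79). In this window 3 runs had summits behind more than 1 gene: those that start with T23B7.3, rpl-36 and sgo-1.

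The 5′ ends of genes in runs were occupied more often than those of genes in no run, and the intervals of first, inner and last genes overlapped. The 5′ end was occupied at 137 of 2398 first genes (5.71%, 4.85 to 6.71), 65 of 864 inner genes (7.52%, 5.95 to 9.48), 128 of 2398 last genes (5.34%, 4.51 to 6.31) and 307 of 11582 genes in no run (2.65%, 2.37 to 2.96). With summits in short gaps left out, it was 5.71% of first genes, 4.17% of inner genes (3.02 to 5.71) and 3.17% of last genes (2.54 to 3.95), against 2.64% of genes in no run (2.37 to 2.95), so the interval of last genes then overlapped that of genes in no run. Those left include summits such as that 94 bp inside prmt-5.

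Small RNA genes sat in few of the gaps but often beside a summit. Of 5 gaps that overlap a snoRNA gene 4 held a summit, of 4 that overlap an snRNA gene 1 did, and the single gap with a tRNA gene did not. The snRNA case was spe-46/W06D4.3, where the summit (rank 1041) lay on the SL2 spliced leader gene sls-2.7, on the other strand. Of 88 gaps that overlap other non-coding genes alone, 3 held a summit (3.41%, 1.17 to 9.55). Leaving out gaps that overlap any non-coding gene, 80 of 3164 held one (2.53%, 2.04 to 3.14).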

How the data were processed

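ChIP-seq of GFP-tagged REPO-1 was analysed from the ce11 peak lists of 2 biological replicates. Per the text files that the authors deposited with the samples, there is a list for each replicate, 1 called on both together (30000 summits each, with no significance threshold) and a list of 1789 replicated summits derived from them by the irreproducible discovery rate (IDR). Each row of the deposited lists has a region, a signal value whose scale is not stated, a −log10 q-value and the offset of the summit. The signal ranked peaks within a list, the q-value was not used, and the ce10 lists were not used here. For the aligner, the peak caller, the IDR cut-off and the depth, nothing is stated in the labels or headers (not given in the sources used here). The labels call the replicates biological and say no more of their independence.

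The gene annotation was Ensembl release 115 for WBcel235, the assembly of ce11, and sequence from the RefSeq copy, whose chromosomes contain every gene and region. A gap lies between a gene and the next that starts beyond every earlier gene, so no protein-coding gene covers it. Summit positions are 1-based. Some gap sequences are not reported here. Summits in a pair's own gap did not count at its outer ends. Replicate lists were used as their 1789 strongest summits. A count of 0 in a gene list or for GAGACGCAG is given with the share that 3 counts would make, which is not an upper limit. Wilson and exact Poisson 95% intervals cover counting error only, and with 1 group no test across samples was made.

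The gaps, gene lists and rules were chosen with earlier results of these data known. The rule for named genes took the 12 strongest gaps, gaps with 2 summits, the strongest gap of each autosome, the runs with most occupied gaps, up to 3 gaps of each gene list, and repo-1. All 88 occupied runs had 1 occupied gap, so the choice of runs fell on position alone and is not described. Genes named for summits inside downstream genes, at acceptor endings, at outer ends or beside small RNA genes were chosen after their values were seen. Alternatives were other gap limits, consecutive genes by start only, peaks at or above the median signal, regions in place of summits, a region counted once, other windows at the outer ends, gaps near non-coding genes left out, and each replicate alone. The window of 300 bp beyond 3′ ends, the split by last letters of the gap, gaps of 1 to 200 bp only, small RNA genes left out and the letters GAGACGCAG were added after seeing the data. The counting was tested on simulated data with known answers. It ran in Python 3.11.15 with numpy 2.4.6, pandas 2.3.3, scipy 1.17.1 and matplotlib 3.10.9.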

Additional observations from a re-analysis of the deposited data

How the results depend on the processing

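Of 61 alternative values, 43 stayed within the 95% interval of the reported value. With gaps of up to 300 bp, 1.36% of short gaps held a summit, at 0.0965 per kb, and 35.5% of summits were nearer to the upstream gene. With gaps of 1 to 200 bp only these were 0.691%, 0.0650 per kb and 25%. With gaps of up to 1000 bp the density was 0.0831 per kb and the share of pairs with a summit within 300 bp beyond the upstream gene was 3.75%. With peaks at or above the median signal, 1.87% of gaps held a summit, at 0.0872 per kb, 2.76% of pairs had one within 300 bp beyond the upstream gene, and the downstream 3′ end was occupied in 1.64% of pairs. Counting any overlap of the region, 5.43% of gaps were occupied, and 4.41% when the region had to cover 50% of the gap. Windows of 200 and 500 bp beyond the upstream gene gave 2.82% and 6.38%. The upstream 5′ end was occupied in 3.41% of pairs within 200 bp upstream and 100 bp downstream, and the downstream 3′ end in 2.27% within 200 bp on either side.

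With each replicate alone, 2.42 to 2.73% of gaps held a summit, at 0.113 to 0.131 per kb, 46.2 to 52.7% of summits were nearer to the upstream gene, the upstream 5′ end was occupied in 7.87 to 12.7% of pairs and the downstream 3′ end in 5.06 to 12.4%, and 4.51 to 4.78% of pairs had a summit within 300 bp beyond the upstream gene. No paired analysis was possible because there was 1 group. Depth is unknown, so gaps without a summit may hold a weaker association.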
